A study of Homo sapiens with 12 samples.

Results

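The levels of 10 long noncoding RNAs with a described role in prostate cancer were followed in MDA-PCa-2b cells, a human prostate cancer line: PCA3, PCGEM1, PART1, ARLNC1, DRAIC, SCHLAP1, PCAT1, PVT1, NEAT1 and MALAT1. They were chosen with earlier results of these data known and matched by symbol, and all 10 were found among the 63241 genes of the count tables. Of these 10 genes, 9 had enough counts to be tested, among 19373 genes tested in all. PCGEM1 had too few counts, with 24 in 12 libraries together. By the GENCODE 29 annotation 15736 of the genes counted were long noncoding RNAs, and 3412 of them were tested.

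Poly-A RNA sequencing covered 4 groups of 3 libraries each. KDR is labelled as the rescue of knock down 2 of DHODH, KD2 and KD1 are labelled as knock down 2 and knock down 1 of DHODH, and NT is the group both are set against here. DHODH encodes the mitochondrial dihydroorotate dehydrogenase of pyrimidine synthesis. The labels do not state what kind of knockdown was used, how the rescue was done or what NT means. All groups come from 1 cell line grown in serum-containing BRFF-HPC1 medium, and the growth text also names the line MDA-PCa-2a. Whether the libraries of a group are separate cultures is not stated, so the p-values rest on a spread between libraries that may be technical.

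Long noncoding RNAs are transcripts that are not translated into a known protein. Several of those described here are made mainly in prostate epithelium and respond to androgens, the hormones that drive luminal prostate cells. Others work at chromatin, at the MYC locus, or inside nuclear bodies, where NEAT1 builds paraspeckles and MALAT1 gathers at splicing speckles.

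Libraries held 23786288 to 38240369 counts. No fall of DHODH RNA was called in the libraries labelled KD2 or KD1, so directions below go with the group labels, not with a measured knockdown. Its mean was 18.6 ± 0.918 counts per 1e6 counts (CPM) in KDR, 13.1 ± 1.73 in KD2, 10.3 ± 0.674 in KD1 and 10.5 ± 2.51 in NT (SD, n = 3 each). Its log2 fold change was 0.82 in KDR against NT (adjusted p = 1.0e-04), 0.31 in KD2 against NT (adjusted p = 0.097) and -0.03 in KD1 against NT (adjusted p = 0.97), by edgeR's quasi-likelihood test with Benjamini-Hochberg adjustment over all genes tested, the test used throughout. The 9 luminal prostate markers, among them KLK3, KLK2 and HOXB13, summed to 17747 to 18131 CPM in KDR, 11229 to 11570 in KD2, 17793 to 18183 in KD1 and 17734 to 21010 in NT. Summed immune markers reached at most 0.264 CPM, endothelial markers at most 0.707, neuroendocrine markers at most 4.57, fibroblast markers at most 5.12 and basal markers at most 7.75 CPM in any library, and KLK3 was at 6282 CPM or above in the mean of each group. The spread between replicates, as a biological coefficient of variation, was 5.52% in KDR, 7.17% in KD2, 6.61% in KD1 and 15.8% in NT. Without NT replicate 2 it was 8.56% in NT, and it was not computed without NT replicate 1 or 3. Mitochondrial genes held 2.59% of counts in NT replicate 3, against 3.42% and 3.37% in NT replicates 1 and 2.

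The 2 nuclear-body RNAs share a sequence at the 3' end, printed here because it bears on how a poly-A library sees them. Both long forms end in a U-rich, A-rich stretch that folds into a triple helix in place of a poly-A tail. MALAT1 lies at chr11:65497640-65508073 and NEAT1 at chr11:65422774-65445540, both on the plus strand (GRCh38). The stretches below come from the GENCODE 29 transcripts at chr11:65506023-65506116 and chr11:65445445-65445540, written as DNA. Capitals mark both U-rich runs and the A-rich run.
MALAT1: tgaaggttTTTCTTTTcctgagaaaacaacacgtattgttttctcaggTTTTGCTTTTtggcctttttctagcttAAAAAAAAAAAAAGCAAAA
NEAT1: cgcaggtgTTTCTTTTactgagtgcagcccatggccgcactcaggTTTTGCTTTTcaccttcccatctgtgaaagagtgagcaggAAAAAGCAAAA
The runs TTTCTTTT and TTTTGCTTTT, in this order and within 100 bases on the transcript strand, occurred together in 4 of 29548 long noncoding transcripts (0.0135%). Among the 10 genes only MALAT1 and NEAT1 held both. The letters of both runs were read from MALAT1 itself, so its own match, among the 4, was set in advance. The match is a description of letters, not of a fold measured here.

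NEAT1 had the highest level per length of exon, MALAT1 left aside, and it was low in every KD2 library and high in every KDR library. NEAT1 (ENSG00000245532) is the RNA scaffold of paraspeckles, nuclear bodies that hold RNA-binding proteins and edited transcripts. Its level was 1994, 2109 and 2112 CPM in the KDR libraries, 983, 969 and 979 CPM in KD2, 1543, 1556 and 1521 CPM in KD1, and 1588, 1516 and 1663 CPM in NT. The KDR libraries were the 3 highest of all 12 and the KD2 libraries the 3 lowest, while KD1 overlapped NT. NEAT1 took 0.202% to 0.214% of all counts in KDR, 0.0946% to 0.0961% in KD2, 0.153% to 0.157% in KD1 and 0.148% to 0.169% in NT.

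NEAT1 fell in KD2 against NT by 0.70 on the log2 scale (95% interval -0.79 to -0.61, edgeR, Benjamini-Hochberg, adjusted p = 8.6e-12). It rose in KDR against NT with a log2 fold change of 0.38 (0.29 to 0.47, adjusted p = 3.5e-07) and in KDR against KD2 with 1.08 (1.00 to 1.17, adjusted p = 3.6e-15). In KD1 against NT the log2 fold change was -0.05 (-0.13 to 0.04, adjusted p = 0.84). Fewer cells that express an RNA and less of it per cell cannot be told apart in these bulk libraries. NEAT1 has a short form with a poly-A tail and a long form without one, and gene counts do not separate them. RNAs that carry no poly-A tail, 16 genes of which RN7SL1 held most counts, summed to 83.2 to 92.7 CPM in KDR, 106 to 148 in KD2, 63.7 to 76.2 in KD1 and 68.9 to 105 in NT; their part in the NEAT1 difference was not tested.

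**Figure D1:**
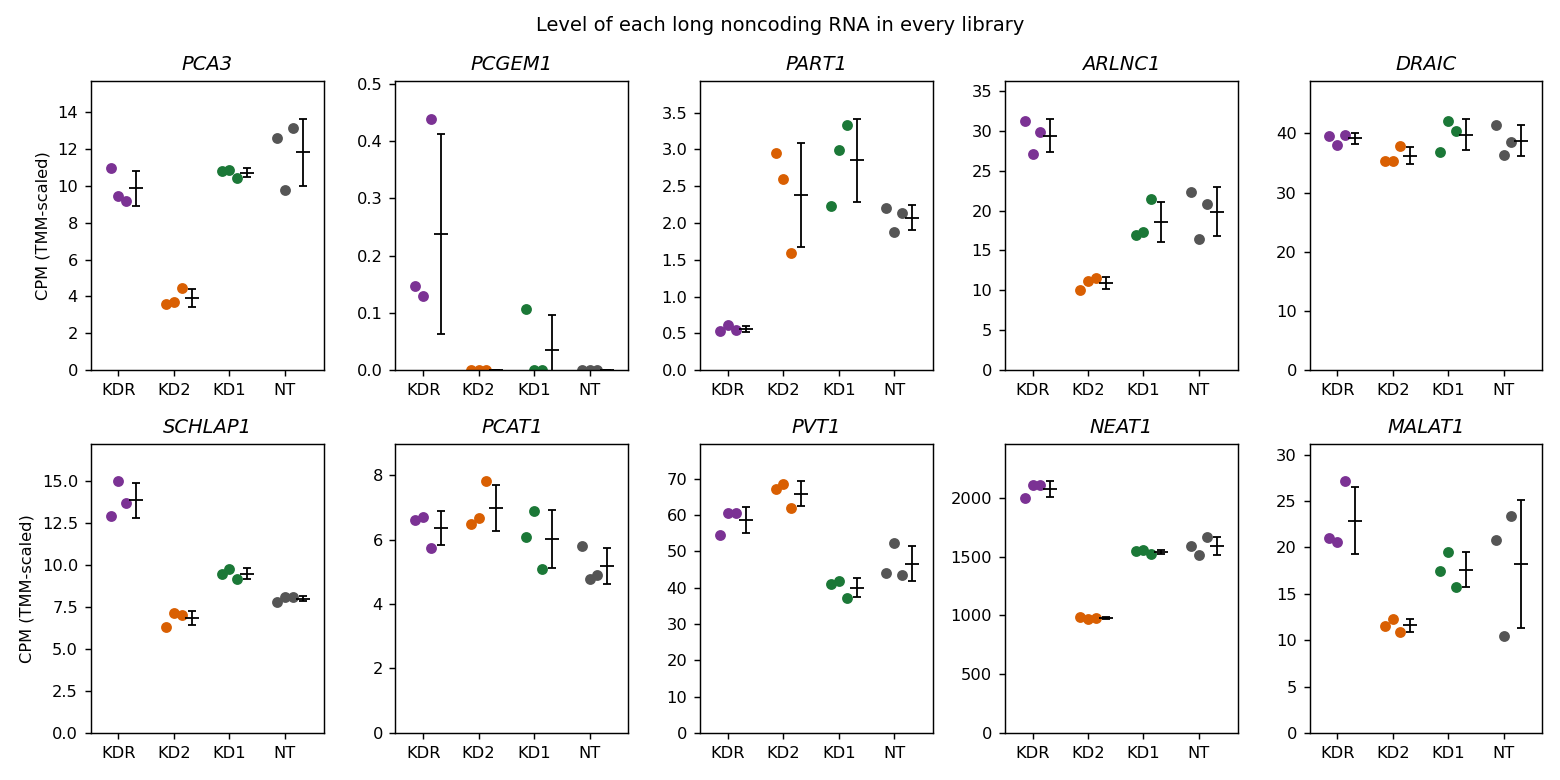
Each point is the CPM (scaled by TMM) of 1 library, on a linear axis that starts at 0, with 1 panel for each of the 10 long noncoding RNAs and the groups KDR, KD2, KD1 and NT along the horizontal axis; the bar beside the points is the mean ± SD of 3 libraries. NEAT1, PCA3, ARLNC1 and SCHLAP1 have their lowest level in KD2, PVT1 has its highest there, PART1 is lowest in KDR, and PCGEM1 is at 0 in all KD2 and NT libraries.

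The proteins of paraspeckles were set beside their RNA. Of 15 paraspeckle protein genes, all tested, KD2 had 4 higher and 2 lower than NT, KDR had 6 higher and 0 lower than NT, KDR had 4 higher and 3 lower than KD2, and KD1 had 0 called against NT. Of all genes tested, 35.9% were called in KD2 against NT (17.8% higher, 18.2% lower). In KDR against NT it was 27.5% (13% higher, 14.5% lower), and in KDR against KD2 32.4% (15.3% higher, 17.1% lower). The share of 6 of 15 in KD2 against NT is near that of all genes. The shares of the 15 in KDR against NT and in KDR against KD2 were larger than those of all genes. Their median log2 fold change was 0.13 in KD2 against NT and 0.11 in KDR against NT, while NEAT1 fell in KD2 and rose in KDR against NT. NONO, a core paraspeckle protein, averaged 566 ± 5.00 CPM in KDR, 656 ± 9.20 in KD2, 487 ± 4.96 in KD1 and 494 ± 35.3 in NT. It rose by 0.41 in KD2 against NT (adjusted p = 7.0e-07) and by 0.20 in KDR against NT (adjusted p = 0.0048). SFPQ, its partner, rose by 0.29 in KD2 against NT (adjusted p = 6.4e-05) and by 0.40 in KDR against NT (adjusted p = 1.4e-06).

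MALAT1 was lower in KD2 and its NT libraries disagreed with each other. MALAT1 (ENSG00000251562) is a nuclear RNA that gathers at speckles, where splicing factors are stored. Its level was 21.0, 20.6 and 27.1 CPM in KDR, 11.6, 12.3 and 10.9 CPM in KD2, 17.5, 19.5 and 15.7 CPM in KD1, and 20.8, 10.4 and 23.4 CPM in NT. KD2 lay below all KDR and KD1 libraries, but NT replicate 2 lay below every KD2 library.

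MALAT1 rose in KDR against KD2 by 0.98 on the log2 scale (0.58 to 1.37, edgeR, Benjamini-Hochberg, adjusted p = 3.2e-04). In KD2 it fell against NT by 0.65 (-1.04 to -0.25, adjusted p = 0.010). This second call was lost without NT replicate 1 (adjusted p = 0.056), without NT replicate 3 (adjusted p = 0.089) and with DESeq2 (adjusted p = 0.059). The log2 fold change was 0.33 in KDR against NT (-0.05 to 0.71, adjusted p = 0.20; 0.54 and adjusted p = 0.039 without NT replicate 3) and -0.05 in KD1 against NT (-0.44 to 0.34, adjusted p = 0.96).

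The MALAT1 counts come from a small share of the gene. Of its 10434 exon bases, 83.7% also lie in exons of another gene, chiefly the antisense gene TALAM1 at chr11:65499312-65507432 (8121 bases, 77.8%). Reads over exons of more than 1 gene were not counted under the stated settings, and TALAM1 had 0 counts in all 12 libraries. The 1703 unshared bases lie in 3 segments of 368, 694 and 641 bases. Only 267 of the 7072 bases between the downstream RefSeq start and the end of the A-rich run (3.78%) were unshared, and the 3' stretch printed above is not among them. MALAT1 values therefore rest on these segments, and its level cannot be set beside that of other genes.

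**Figure D2:**
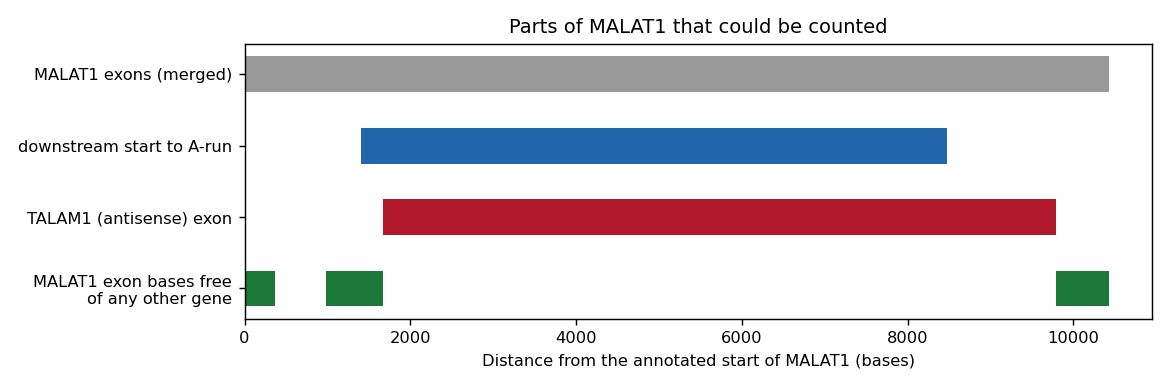
The horizontal axis is the distance in bases from the annotated start of MALAT1, drawn to scale; the bars show its merged exons, the stretch from the downstream RefSeq start to the A-rich run, the antisense TALAM1 exon, and the exon bases that no other gene shares. The unshared bases form 3 short segments of 368, 694 and 641 bases out of 10434.

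The middle segment holds the RefSeq promoter window of the downstream start. The window chr11:65498795-65499094 (plus strand, GRCh38.p14) is printed because it lies whole within the counted bases, so that reads from it count as MALAT1. Capitals mark the 50 bases from the RefSeq start onward.
MALAT1 downstream start: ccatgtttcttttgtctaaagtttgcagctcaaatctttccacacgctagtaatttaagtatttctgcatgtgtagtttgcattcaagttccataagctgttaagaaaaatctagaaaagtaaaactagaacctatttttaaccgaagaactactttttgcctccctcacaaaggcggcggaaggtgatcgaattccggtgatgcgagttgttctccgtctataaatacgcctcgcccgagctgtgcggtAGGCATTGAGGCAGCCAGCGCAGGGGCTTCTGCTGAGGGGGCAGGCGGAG
RefSeq windows of 300 bases were at hand for PCGEM1, PART1, PCA3, MALAT1 and DRAIC, 7 windows in all. PCAT1, PVT1, SCHLAP1, NEAT1 and ARLNC1 had no window.

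Proteins of nuclear speckles were set beside MALAT1. Of 13 such genes tested, 5 were higher and 0 lower in KD2 against NT, 8 higher and 0 lower in KDR against NT, 4 higher and 1 lower in KDR against KD2, and 0 called in KD1 against NT. Of all genes tested, 35.9% were called in KD2 against NT (17.8% higher, 18.2% lower). In KDR against NT 27.5% were called (13% higher, 14.5% lower), and in KDR against KD2 32.4% (15.3% higher, 17.1% lower). The speckle genes called in KD2 or KDR against NT were all higher. That direction was read from these same genes, so the shares to set beside them are 35.9% and 27.5%, called either way. These shares cover genes of all levels, and a part of level in the calls was not tested. SRSF6, a splicing factor of the SR family, averaged 253 ± 6.21 CPM in KDR, 258 ± 7.05 in KD2, 209 ± 2.12 in KD1 and 200 ± 14.9 in NT (log2 fold change in KD2 against NT 0.37, adjusted p = 1.4e-05; in KDR against NT 0.34, adjusted p = 7.2e-05).

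Among the prostate-restricted RNAs, PCA3 had its lowest level in KD2. PCA3 (ENSG00000225937, chr9:76691980-76863307, plus strand) is a prostate cancer RNA measured in urine tests, and it lies antisense within PRUNE2, a gene described as a tumour suppressor in prostate. It stood at 11.0, 9.45 and 9.18 CPM in KDR, 3.60, 3.68 and 4.47 CPM in KD2, 10.8, 10.9 and 10.4 CPM in KD1, and 12.6, 9.75 and 13.1 CPM in NT. All 3 KD2 libraries lay below the 9 other libraries, which overlapped. In KD2 against NT none of the 9 tested RNAs fell further than PCA3, at -1.60 on the log2 scale (-1.91 to -1.29, edgeR, Benjamini-Hochberg, adjusted p = 9.5e-09). PCA3 rose in KDR against KD2 by 1.34 (1.03 to 1.65, adjusted p = 2.2e-07). In KDR against NT the log2 fold change was -0.26 (-0.54 to 0.02, adjusted p = 0.17; -0.39 and adjusted p = 0.034 without NT replicate 2), and in KD1 against NT it was -0.14 (-0.43 to 0.14, adjusted p = 0.84).

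PRUNE2 fell with PCA3 in KD2, but by less. PRUNE2 averaged 1599 ± 12.6 CPM in KDR, 1205 ± 35.5 in KD2, 1666 ± 46.0 in KD1 and 1675 ± 80.7 in NT. Its log2 fold change was -0.48 in KD2 against NT (adjusted p = 8.5e-09) and 0.41 in KDR against KD2 (adjusted p = 1.3e-07). For every 1000 PRUNE2 counts there were 5.78 to 6.80 PCA3 counts in KDR, 2.94 to 3.84 in KD2, 6.21 to 6.71 in KD1 and 6.12 to 7.83 in NT. Reads over the 7.48% of PCA3 exon bases that overlap PRUNE2 exons were left out under the stated settings. The whole of PCA3 lies within the span of PRUNE2 (chr9:76611376-76906114), and the counting did not use strand. Unspliced PRUNE2 reads that fall in the other PCA3 exon bases therefore cannot be told from PCA3.

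ARLNC1 followed the same order as NEAT1. ARLNC1 (ENSG00000260896, chr16:80826074-80892682, minus strand) is induced by androgen signalling in prostate cells. It stood at 31.2, 27.1 and 29.8 CPM in KDR, 10.0, 11.2 and 11.5 CPM in KD2, 16.9, 17.3 and 21.5 CPM in KD1, and 22.3, 16.4 and 20.8 CPM in NT. KDR lay above and KD2 below every other library, and KD1 overlapped NT. ARLNC1 fell by 0.87 in KD2 against NT (-1.12 to -0.61, edgeR, Benjamini-Hochberg, adjusted p = 6.3e-06). It rose by 0.57 in KDR against NT (0.32 to 0.81, adjusted p = 7.9e-04) and by 1.43 in KDR against KD2 (1.18 to 1.69, adjusted p = 3.6e-09). The log2 fold change in KD1 against NT was -0.09 (-0.34 to 0.15, adjusted p = 0.89). Another gene on the same strand, ENSG00000286221, shares 33.7% of ARLNC1 exon bases, so reads over these bases were not counted for either.

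The luminal markers of the line were set beside PCA3 and ARLNC1. Of the 9 luminal markers, 0 were higher and 8 lower in KD2 against NT, 2 higher and 3 lower in KDR against NT, and 8 higher and 0 lower in KDR against KD2. Of all genes tested, 17.8% were higher and 18.2% lower in KD2 against NT, 13% higher and 14.5% lower in KDR against NT, and 15.3% higher and 17.1% lower in KDR against KD2. Their part in the PCA3 and ARLNC1 differences was not tested.

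PART1 was the only one of the 9 tested RNAs called lower in KDR against NT. PART1 (ENSG00000152931, chr5:60487713-60548813, plus strand) was named as a prostate androgen-regulated transcript. Its counts were few: 18, 19 and 15 in KDR, 104, 75 and 38 in KD2, 63, 72 and 128 in KD1, and 71, 57 and 56 in NT. On the CPM scale these were 0.526, 0.613 and 0.549 in KDR, 2.95, 2.60 and 1.59 in KD2, 2.23, 2.99 and 3.33 in KD1, and 2.21, 1.88 and 2.13 in NT. All KDR libraries lay below the other 9. KD1 lay above NT in every library, and KD2 overlapped both. PART1 fell in KDR against NT by 1.88 on the log2 scale (-2.51 to -1.24, edgeR, Benjamini-Hochberg, adjusted p = 6.2e-05) and in KDR against KD2 by 2.09 (-2.72 to -1.45, adjusted p = 1.1e-05). PART1 had a log2 fold change of 0.21 in KD2 against NT (-0.35 to 0.77, adjusted p = 0.60). In KD1 against NT it was 0.46 (-0.10 to 1.02, adjusted p = 0.79), also not called.

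PDE4D, a cyclic AMP phosphodiesterase gene that overlaps the PART1 start on the other strand, was also lower in KDR. It averaged 1.07 ± 0.306 CPM in KDR, 2.00 ± 0.509 in KD2, 2.12 ± 0.648 in KD1 and 3.00 ± 0.800 in NT. The fall was 1.48 in KDR against NT (log2 fold change -1.48, adjusted p = 0.0011) and 0.91 in KDR against KD2 (log2 fold change -0.91, adjusted p = 0.035). Reads over the 1.79% of PART1 exon bases that lie in PDE4D exons were left out under the stated settings. PDE4D spans chr5:58969038-60522120 and so covers part of the PART1 span. The counting did not use strand, so unspliced PDE4D reads that fall in PART1 exons cannot be told from PART1.

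PCGEM1 was at the limit of detection. PCGEM1 (ENSG00000227418, chr2:192749845-192776899, plus strand) is a prostate-enriched, androgen-responsive RNA. It had 5, 4 and 12 counts in the KDR libraries, 0 in all 3 KD2 libraries, 3, 0 and 0 in KD1, and 0 in all 3 NT libraries. KDR therefore held 21 of its 24 counts, or 0.227 CPM over the group (exact Poisson 95% interval 0.140 to 0.347). This interval takes each count as independent and leaves out the spread between libraries. Each end of a pair was counted alone, so the interval is too narrow even for counting error where both ends were counted. A fixed floor of 3 counts over a group equals 0.0338 CPM in NT and 0.0341 CPM in KD2. The exact Poisson 95% interval for a count of 0 reached up to 0.0416 CPM in NT and 0.0419 CPM in KD2. Of the 21 counts in KDR, 12 came from replicate 3; the other KDR libraries stood at 0.146 and 0.129 CPM. No fold is given at these counts. No test was made for it.

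DRAIC was called in none of the comparisons. DRAIC (ENSG00000245750, chr15:69462921-69843120, plus strand) is named as a brake on cell invasion and has been described to block the kinase complex that activates NF-kappaB. It stood at 39.6, 38.1 and 39.8 CPM in KDR, 35.3, 35.4 and 37.9 CPM in KD2, 36.9, 42.1 and 40.3 CPM in KD1, and 41.5, 36.3 and 38.4 CPM in NT. The groups overlapped, except that KDR lay above KD2. The log2 fold change was -0.10 in KD2 against NT (-0.26 to 0.06, edgeR, Benjamini-Hochberg, adjusted p = 0.36), 0.01 in KDR against NT (-0.15 to 0.18, adjusted p = 0.92) and 0.11 in KDR against KD2 (-0.05 to 0.28, adjusted p = 0.29). In KD1 against NT it was 0.04 (-0.13 to 0.20, adjusted p = 0.94). In KD2 against KD1 it was -0.14 (-0.30 to 0.03, adjusted p = 0.20). The bound farthest from 0 among these intervals was -0.30.

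The kinase subunits described to bind DRAIC moved apart in KD2 against NT, while neither was called in KDR or KD1 against NT. CHUK, which encodes IKK alpha, averaged 41.2 ± 0.795 CPM in KDR, 22.6 ± 1.19 in KD2, 47.5 ± 2.05 in KD1 and 45.3 ± 8.10 in NT, and fell by 1.00 on the log2 scale in KD2 against NT (adjusted p = 4.2e-08). IKBKB, which encodes IKK beta, averaged 33.8 ± 0.656 CPM in KDR, 42.3 ± 2.15 in KD2, 27.6 ± 1.38 in KD1 and 30.9 ± 2.80 in NT, and rose by 0.45 in KD2 against NT (adjusted p = 1.3e-04).

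SCHLAP1 was highest in KDR. SCHLAP1 (ENSG00000281131, chr2:180692104-180916939, plus strand) marks aggressive prostate tumours and has been described to oppose the SWI/SNF chromatin remodelling complex. It stood at 12.9, 15.0 and 13.7 CPM in KDR, 6.33, 7.15 and 7.01 CPM in KD2, 9.48, 9.77 and 9.14 CPM in KD1, and 7.80, 8.10 and 8.08 CPM in NT. None of the 4 groups overlapped another, in the order KDR, KD1, NT, KD2. SCHLAP1 rose by 0.79 in KDR against NT (0.55 to 1.04, edgeR, Benjamini-Hochberg, adjusted p = 2.1e-05) and by 1.02 in KDR against KD2 (0.77 to 1.27, adjusted p = 5.9e-07). The gaps to NT were not called in KD2, at -0.23 (-0.48 to 0.03, adjusted p = 0.16), or in KD1, at 0.24 (-0.01 to 0.49, adjusted p = 0.79).

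The SWI/SNF subunits SMARCB1 and SMARCA4 were followed with it. SMARCB1 averaged 80.1 ± 1.20 CPM in KDR, 86.9 ± 5.45 in KD2, 85.2 ± 0.345 in KD1 and 91.7 ± 16.7 in NT and was called in no comparison with NT. SMARCA4, an ATPase of the complex, averaged 262 ± 1.19 CPM in KDR, 309 ± 5.51 in KD2, 236 ± 1.27 in KD1 and 248 ± 30.8 in NT, with a rise of 0.32 in KD2 against NT (adjusted p = 3.5e-04).

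**Figure D3:**
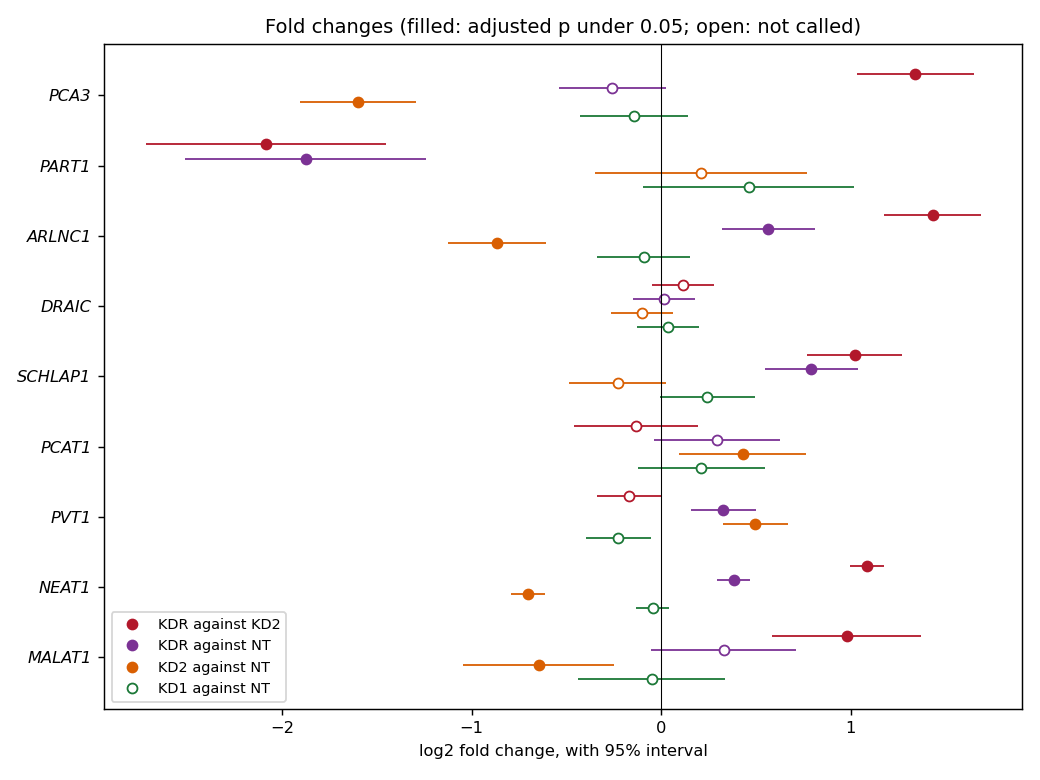
The horizontal axis is the log2 fold change with its 95% interval from the edgeR fit for each of the 9 tested RNAs, with 1 colour per comparison; filled points have an adjusted p under 0.05 and open points do not. KDR against KD2 has 5 filled points to the right of 0 and 1 to the left, KD2 against NT has 2 to the right and 4 to the left, and KD1 against NT has 0 filled points.

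PVT1 and PCAT1 come from the gene desert on either side of MYC, and PVT1 was higher with both KDR and KD2. PVT1 (ENSG00000249859, chr8:127794526-128187101, plus strand) is often amplified with MYC and has been described to stabilise its protein. It stood at 54.5, 60.6 and 60.7 CPM in KDR, 67.1, 68.4 and 62.0 CPM in KD2, 41.0, 41.8 and 37.0 CPM in KD1, and 44.1, 52.2 and 43.6 CPM in NT. KD2 lay above every other library, KDR above all of NT, and KD1 below all of NT.

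PVT1 rose in KD2 against NT by 0.50 (0.33 to 0.67, edgeR, Benjamini-Hochberg, adjusted p = 3.9e-05) and in KDR against NT by 0.33 (0.16 to 0.50, adjusted p = 0.0041). The log2 fold change was -0.17 in KDR against KD2 (-0.34 to -0.00081, adjusted p = 0.12; -0.18 and adjusted p = 0.024 without NT replicate 2) and -0.23 in KD1 against NT (-0.40 to -0.05, adjusted p = 0.79). MYC, the growth-promoting transcription factor, averaged 144 ± 6.63 CPM in KDR, 184 ± 2.88 in KD2, 91.5 ± 2.53 in KD1 and 90.8 ± 6.75 in NT. MYC rose by 1.02 in KD2 against NT (adjusted p = 9.7e-12) and by 0.67 in KDR against NT (adjusted p = 2.2e-08), and fell in KDR against KD2 by 0.35 (log2 fold change -0.35, adjusted p = 1.2e-04). For every 1000 MYC counts there were 372 to 443 PVT1 counts in KDR, 341 to 368 in KD2, 393 to 469 in KD1 and 494 to 531 in NT.

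**Figure D4:**
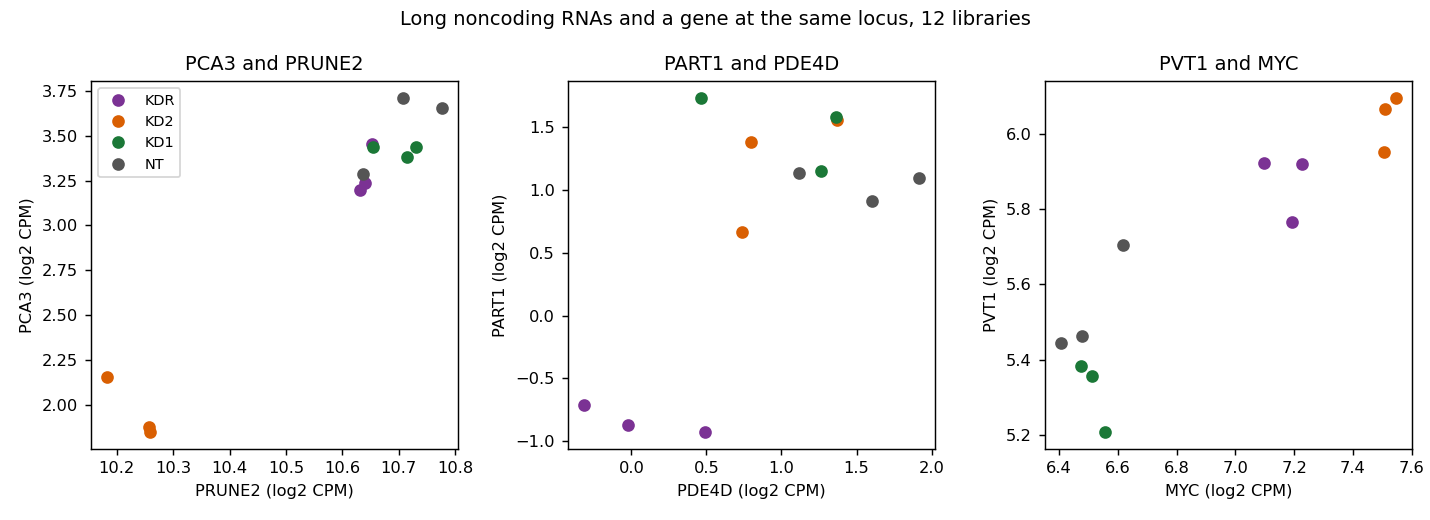
Each point is 1 of 12 libraries, coloured by group (KDR, KD2, KD1, NT), with the log2 CPM of a neighbouring gene on the horizontal axis and that of the long noncoding RNA on the vertical axis; the panels pair PCA3 with PRUNE2, PART1 with PDE4D, and PVT1 with MYC. KD2 libraries sit apart at low PCA3 and low PRUNE2, KDR libraries at low PART1, and KD2 followed by KDR libraries at high PVT1 and high MYC.

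PCAT1 had the smallest rise called in KD2 and the least secure one. PCAT1 (ENSG00000253438, chr8:126556323-127419050, plus strand) has been described to repress BRCA2, a gene of homologous recombination repair. It stood at 6.61, 6.71 and 5.74 CPM in KDR, 6.50, 6.66 and 7.81 CPM in KD2, 6.09, 6.90 and 5.10 CPM in KD1, and 5.81, 4.79 and 4.92 CPM in NT. KD2 lay above NT in every library, while KDR and KD1 overlapped each other, KD2 and NT. PCAT1 rose in KD2 against NT by 0.43 (0.10 to 0.76, edgeR, Benjamini-Hochberg, adjusted p = 0.040).

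That PCAT1 call was lost in 10 of 20 alternatives. Its adjusted p was 0.10 without NT replicate 2 or NT replicate 3, 0.061 without KD2 replicate 2, 0.15 without KD2 replicate 3 and 0.0502 without KDR replicate 1. The log2 fold change of PCAT1 was 0.30 in KDR against NT (-0.04 to 0.63, adjusted p = 0.19), -0.13 in KDR against KD2 (-0.46 to 0.20, adjusted p = 0.57) and 0.21 in KD1 against NT (-0.12 to 0.55, adjusted p = 0.81). BRCA2 averaged 12.8 ± 1.76 CPM in KDR, 24.1 ± 3.98 in KD2, 7.79 ± 0.503 in KD1 and 5.61 ± 2.25 in NT. Its log2 fold change was 2.10 in KD2 against NT (adjusted p = 9.5e-09) and 1.19 in KDR against NT (adjusted p = 6.7e-05).

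Counted over the 9 tested RNAs, KD2 against NT had 2 called higher (PCAT1, PVT1) and 4 called lower (PCA3, MALAT1, NEAT1, ARLNC1). Of all genes tested, 35.9% were called there (17.8% higher, 18.2% lower), and of long noncoding RNAs tested 18.7% (6.92% higher, 11.8% lower). The median log2 fold change was -0.23 over the 9 RNAs, -0.12 over long noncoding RNAs and -0.01 over all genes tested. KDR against NT had 4 higher (SCHLAP1, NEAT1, ARLNC1, PVT1) and 1 lower (PART1). Of all genes tested, 27.5% were called there (13% higher, 14.5% lower), and of long noncoding RNAs 16.1% (11.4% higher, 4.69% lower). The medians there were 0.33, 0.18 and 0.01 in the same order of gene sets.

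KDR against KD2 had 5 higher (PCA3, SCHLAP1, MALAT1, NEAT1, ARLNC1) and 1 lower (PART1). Of all genes tested, 32.4% were called there (15.3% higher, 17.1% lower), and of long noncoding RNAs 19.8% (15% higher, 4.78% lower), with medians of 0.98, 0.29 and 0.02 in that order. KD2 against KD1 had 1 higher (PVT1) and 5 lower (PCA3, SCHLAP1, MALAT1, NEAT1, ARLNC1). Of all genes tested, 35.5% were called there (17.9% higher, 17.5% lower), and of long noncoding RNAs 17.4% (5.95% higher, 11.4% lower). Without NT replicate 2, 5 of the 9 RNAs were called in KD2 against NT, 6 in KDR against NT, 7 in KDR against KD2, 6 in KD2 against KD1 and 0 in KD1 against NT. The 3 comparisons among KDR, KD2 and NT share libraries, so their values stand side by side and are not independent. The members were picked for their names in prostate cancer, with earlier results of these data known. They passed a filter on low counts, as did all genes tested. These shares therefore describe the members and say nothing of other long noncoding RNAs.

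KD1 against NT had 0 of 9 RNAs called, where 0% of all genes tested were called. At an unadjusted p under 0.05 there was 1, PVT1, and DESeq2 and limma-voom called 0 of the 9. Over all genes edgeR, DESeq2 and limma-voom called 0, with 1185 genes at an unadjusted p under 0.05. The 95% intervals of the 9 RNAs ran at their widest from -0.44 (MALAT1) to 1.02 (PART1).

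Per kilobase of exon, the NT means ran from NEAT1 at 69.8 ± 3.25 CPM per kilobase over SCHLAP1 at 5.56 ± 0.118, ARLNC1 at 2.96 ± 0.456, PVT1 at 1.83 ± 0.189, DRAIC at 1.23 ± 0.0822, PCA3 at 0.834 ± 0.128, PCAT1 at 0.280 ± 0.0300 and PART1 at 0.163 ± 0.0133 to PCGEM1 at 0 (SD, n = 3). MALAT1 is left out of this order, because 83.7% of its exon bases could not be counted. Neighbours in this order were more than 1 SD apart.

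By the smallest root mean square difference of centred log2 CPM over 12 libraries, among 11200 other genes that averaged 5 CPM or more (11201 for PART1, which averaged less), the patterns most like those of the called RNAs were found in these genes. NEAT1 was closest to TSC22D1 (0.0711) and ZNF200 (0.0720), and PVT1 to ID1 (0.0924) and GATA2 (0.0943). PCA3 was closest to NAT1 (0.119) and SLC7A11-AS1 (0.161), ARLNC1 to KLF3-AS1 (0.141) and FAM117B (0.149), and SCHLAP1 to FBXL17 (0.116) and RSKR (0.117). PCAT1 was closest to BICD2 and CCDC121 (both 0.120), MALAT1 to CRNDE (0.179) and MPHOSPH9 (0.202), and PART1 to SLC7A2 (0.264) and DNAH8 (0.279). The spread of an RNA's own log2 CPM about its mean ran from 0.204 for PCAT1 to 0.893 for PART1, with 0.645 for PCA3. Equal differences therefore do not mean equal likeness. The libraries share depth and group, so likeness describes a pattern over 4 groups.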

How the data were processed

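Poly-A libraries of MDA-PCa-2b were read as pairs on an Illumina NovaSeq X Plus, per the labels. The authors deposited raw counts per gene, made per the file headers with featureCounts 1.6.4 over exons by gene identifier of Ensembl release 111 on GRCh38. No option for strand, pairs or reads with several places was set, so each end counted alone and reads over exons of more than 1 gene were left out. HISAT2, cutadapt and FastQC are named in the submitters' processing notes without versions.

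Counts were tested with edgeR 4.0.16 in R 4.3.3: filterByExpr (minimum count 10) kept 19373 genes, TMM (trimmed mean of M values) set the scale of each library, and all 12 libraries entered 1 quasi-likelihood fit with group as its only term. Genes with a Benjamini-Hochberg adjusted p under 0.05 count as called. CPM are TMM-scaled. Alternatives used DESeq2 1.42.0, limma 3.58.1 (voom with library weights), other scalings and filters, only the groups compared, a replicate block, and each library left out in turn. The method was tested on simulated data. No 2 libraries held identical counts. Exon overlaps came from the coordinates in the count tables. Sequences came from GENCODE 29 transcripts and RefSeq promoter windows (GRCh38.p14). The 10 RNAs and the gene lists were chosen with earlier results of these data known; from each list the 4 genes with the smallest adjusted p in KD2 against NT may be named, neighbours and described partners freely, and for each called RNA the 2 genes of closest pattern. Some genes of these lists are not reported here.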

Additional observations from a re-analysis of the deposited data

Results flagged for a closer look

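The effect against NT differed between KD2 and KD1 for 6 of the 9 tested RNAs, by the test of KD2 against KD1 in edgeR with Benjamini-Hochberg adjustment over all genes tested. Both effects share the NT libraries, so their difference is the direct comparison of KD2 with KD1, in which 35.5% of all genes were called. The difference (KD2 minus KD1, log2) was -1.46 for PCA3 (adjusted p = 4.4e-08), -0.77 for ARLNC1 (adjusted p = 2.8e-05) and -0.66 for NEAT1 (adjusted p = 2.7e-11). It was -0.60 for MALAT1 (adjusted p = 0.018). The MALAT1 call was lost with DESeq2 (adjusted p = 0.084), without KD1 replicate 2 (0.078), without KD2 replicate 1 (0.051) and without KD2 replicate 3 (0.065). The difference was -0.47 for SCHLAP1 (adjusted p = 0.0040) and 0.72 for PVT1 (adjusted p = 2.6e-07). Every KD2 library lay below every KD1 library for PCA3, ARLNC1, NEAT1, MALAT1 and SCHLAP1, and above for PVT1. These RNAs were picked by their call in this same comparison, so the separation adds no support to it. The share of all genes with such a separation was not counted. DHODH itself had a log2 fold change of 0.34 in KD2 against KD1 (adjusted p = 0.070).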

How the results depend on the processing

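Of the 23 calls of single RNAs, 20 held in all 20 alternatives. PCAT1 in KD2 against NT was lost in 10 (adjusted p 0.028 to 0.15), MALAT1 in KD2 against NT in 3 (0.089 at most) and MALAT1 in KD2 against KD1 in 4 (0.084 at most). The number of RNAs called ran from 4 to 6 for KD2 against NT, 5 to 6 for KDR against NT, 6 to 7 for KDR against KD2 and 5 to 6 for KD2 against KD1. Without a filter on low counts, edgeR called 23 genes in KD1 against NT, none of them among these RNAs.

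Signs turned only for uncalled values near 0. In KD1 against NT, DRAIC had -0.0032 with limma-voom and -0.0064 to 0.092 with 1 library left out, MALAT1 -0.33 to 0.17 and ARLNC1 -0.22 to 0.0026 with 1 library left out. In KDR against NT, DRAIC had -0.023 with limma-voom and -0.038 to 0.066 with 1 library left out.

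Whether equal replicate numbers mark paired libraries was not settled. Of 18 same-number pairs from different groups, 1 had a residual correlation above 0.1 (-0.16 to 0.25 over 11201 genes). Pairs of unlike number were not computed, so these values have nothing to be set beside. With a replicate block the genes called were 0 for KD1 against NT, 6882 for KD2 against NT, 5219 for KDR against NT, 6190 for KDR against KD2 and 6789 for KD2 against KD1, and the RNAs called were 0, 6, 5, 6 and 6. Depth limits PCGEM1 and PART1, and shared exons limit MALAT1.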

Other observations

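Of 25 further prostate cancer long noncoding RNAs, 22 were in the tables and 11 tested. KD2 against NT had 1 higher and 6 lower, KDR against NT had 3 higher and 1 lower, and KDR against KD2 had 3 higher and 2 lower. Of long noncoding RNAs tested, 18.7%, 16.1% and 19.8% were called in these comparisons, and of all genes tested 35.9%, 27.5% and 32.4%. PCAT14, a prostate-restricted RNA, averaged 463 ± 6.56 CPM in KDR, 858 ± 19.0 in KD2, 235 ± 4.96 in KD1 and 220 ± 10.1 in NT. It rose by 1.97 on the log2 scale in KD2 against NT (edgeR with Benjamini-Hochberg adjusted p = 1.0e-18) and by 1.08 in KDR against NT (adjusted p = 1.3e-13).

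Of 41 long noncoding RNAs described in other cancers, 37 were tested. KD2 against NT had 17 higher and 8 lower, KDR against NT 13 higher and 3 lower, and KDR against KD2 9 higher and 9 lower, beside the same shares over long noncoding RNAs and all genes. UCA1, first described in bladder cancer, averaged 22.0 ± 1.86 CPM in KDR, 26.5 ± 2.15 in KD2, 8.47 ± 0.759 in KD1 and 7.36 ± 0.697 in NT (log2 fold change 1.85 in KD2 against NT, adjusted p = 1.4e-11). MIR22HG averaged 31.8 ± 2.44 CPM in KDR, 17.8 ± 0.302 in KD2, 35.8 ± 2.10 in KD1 and 35.7 ± 3.13 in NT (log2 fold change -1.01 in KD2 against NT, adjusted p = 6.1e-09). The snoRNA hosts SNHG3 and GAS5 rose in KD2 against NT by 0.89 (adjusted p = 3.1e-10) and 0.58 (adjusted p = 3.2e-08).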
